A study of Mus musculus with 6 samples.

Results

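The normal optic fissure of the mouse embryo at E11.5 was described from 3 control arrays, out of 6 arrays in the series. The fissure is a transient cleft on the lower side of the optic cup and stalk. Its edges meet and fuse in midgestation, and a failure to fuse leaves a gap in the eye called coloboma. The tissue was cut out by laser microdissection, and its total RNA was hybridised to Affymetrix arrays, 1 array per sample. The control embryos were C57BL/6J and of the genotype Six3Cre-;Fgfr1fx/fx;Fgfr2fx/fx, so both FGF receptor genes were flanked by recombination sites on both alleles but no Cre was present. They are therefore Cre-negative floxed embryos, not embryos with unmodified receptor genes. The other 3 arrays, of Six3Cre+ tissue, were not used here. The control arrays are named 8711, 9216 and 9266 after the numbers in their titles, and triplets of values are given in that order. The labels do not say what these numbers mark, nor whether an array held 1 embryo or a pool, so the spread among the arrays may be partly technical.

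At this stage the optic cup holds a neural layer of retinal progenitors and an outer layer that becomes the retinal pigment epithelium. Both continue through the fissure margins into the optic stalk, the precursor of the glia around the optic nerve. Mesenchyme, blood vessels and macrophages lie in and around the cleft. Homeobox factors of the Vax family mark the ventral cup and stalk, while Mitf and Otx2 direct pigment epithelium fate. Retinoic acid, hedgehog and FGF signals are known regulators of the ventral eye.

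Each gene was read by the brightest, on average, of its own probe sets. Of 18193 genes, 10338 (56.8%) had a signal of at least 26.7 in all 3 arrays. This level is the 40th percentile of the genes' mean log2 signal, and it is used below as the line between clear and low signal. All 69 olfactory and vomeronasal receptor genes, which this tissue has no known use for, had means under the level. Their median was 4.60 and their highest mean 21.1. Some genes listed below for other positions or stages, among them Hoxa5 and Crx, lay above it. A signal also depends on how well a probe set binds its target. Among 5022 genes with several probe sets above the level, the brightest was a median of 3.70-fold brighter than the dimmest. Orders of signal between genes are therefore orders of brightness, not of transcript number. Values of 1 probe set can be set side by side between arrays, but other probe sets of the gene may order the arrays differently. Of 83 genes named below with several probe sets above the level, 31 had the same brightest array in all of them. The same dimmest array was found in 35.

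The brightest genes were those of protein synthesis. Of the 15 brightest genes 12 encode ribosomal proteins, and of the 100 brightest 28 do. By symbol pattern, 49 of all 18193 genes were of this kind. Rpl13a, a protein of the large ribosomal subunit, was brightest, with 13290.0, 12214 and 13951 and a mean of 13152 ± 877 (SD, n = 3). Rps3a1, Rpsa, Rps18 and Rps29 followed, with means of 12795, 12570.0, 12400.0 and 12011. The others among the 15 were Rps4x, Rps28, Rplp2, Rps20, Rps7, Rps14 and Rps2, at 10985 down to 10242. The 3 that are not ribosomal were Eef1a1, the elongation factor that brings aminoacyl-tRNA to the ribosome, at 11685 ± 991 (SD, n = 3), Tpt1, a translationally controlled protein, at 11444 ± 1041.5 (SD, n = 3), and Hmgn1, a nucleosome-binding protein, at 11386 ± 631 (SD, n = 3). All 15 were brightest in control 9266, which was the brightest array for 41.4% of all genes with a mean above the level. The spread of these genes was small, with highest values 1.08-fold to 1.43-fold the lowest. These 49 ribosomal protein genes together gave 5.11%, 4.96% and 5.56% of the summed gene signal in the 3 arrays. Genes read only by shared probe sets are not among them.

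Among 668 genes of transcription factor families, 315 (47.2%) had clear signal in all 3 arrays, against 56.8% of all genes. A mean of 1000 or more was reached by 33 of the 668, against 1430 of all 18193 genes. Plagl1, an imprinted zinc finger factor, was brightest, with 6461, 6833 and 7465.5. Its place rests on 1 probe set, since the others had 78.4, 112 and 107.5 and 70.4, 64.8 and 48. It was the only member of these families, which were set by symbol patterns, among the 100 brightest genes. Zic1, a zinc finger factor of the neural plate and stalk, came next with 4165, 5282 and 4038, and Nr2f1, an orphan nuclear receptor needed for optic nerve development, with 4243, 4079 and 4023. Zic1 was highest in control 9216, while the 3 Nr2f1 values lay close together. A second Zic1 probe set had 3177, 3165 and 3059, with no such rise in control 9216. The basic helix-loop-helix partner factor Tcf12 had 2826, 3979 and 2925.

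Mitf, the master regulator of pigment cell fate, was the fifth brightest factor, with 2402.5, 2236 and 2575. Its other probe set was dimmer, with 143.4, 129.7 and 173.3, in the same order of arrays. The SMAD partner of TGF-beta and BMP signalling, Smad4, had 1788, 2915 and 2228. Sox4 and Sox11, factors of immature neural cells, had 2013, 2619.8 and 2050.1 and 2214, 2765 and 1639. Hif1a, the oxygen-regulated factor, had 1975, 2692 and 1987. These last 4 were all highest in control 9216 at their brightest probe set. The next probe set was highest in control 9216 for Hif1a, with 377, 699.9 and 348, but not for Smad4, with 1905, 1781 and 1732, Sox4, with 367.5, 185 and 376, or Sox11, with 1929, 2022 and 2231. The rest of the 20 brightest were Yy1, Pbx3, Bach1, Pax6, Sox2, Otx2, Foxj3, Creb1, Meis2, Id2 and Atf2, with means from 1865 to 1323. Id2 belongs to the helix-loop-helix inhibitors, which do not bind DNA themselves. No member of the 20 varied by more than 1.69-fold between arrays, but 15 of them were brightest, at the probe set used, in control 9216, which was the brightest array for 29.9% of all genes with a mean above the level. Without control 9216, 17 of the 20 remained, and the number of factors among the 500 brightest genes was 5 in place of 9. Among all 18193 genes, 668 were of these families. When a gene was instead given the mean of all its probe sets, only 7 of the 20 remained.

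**Figure D1:**
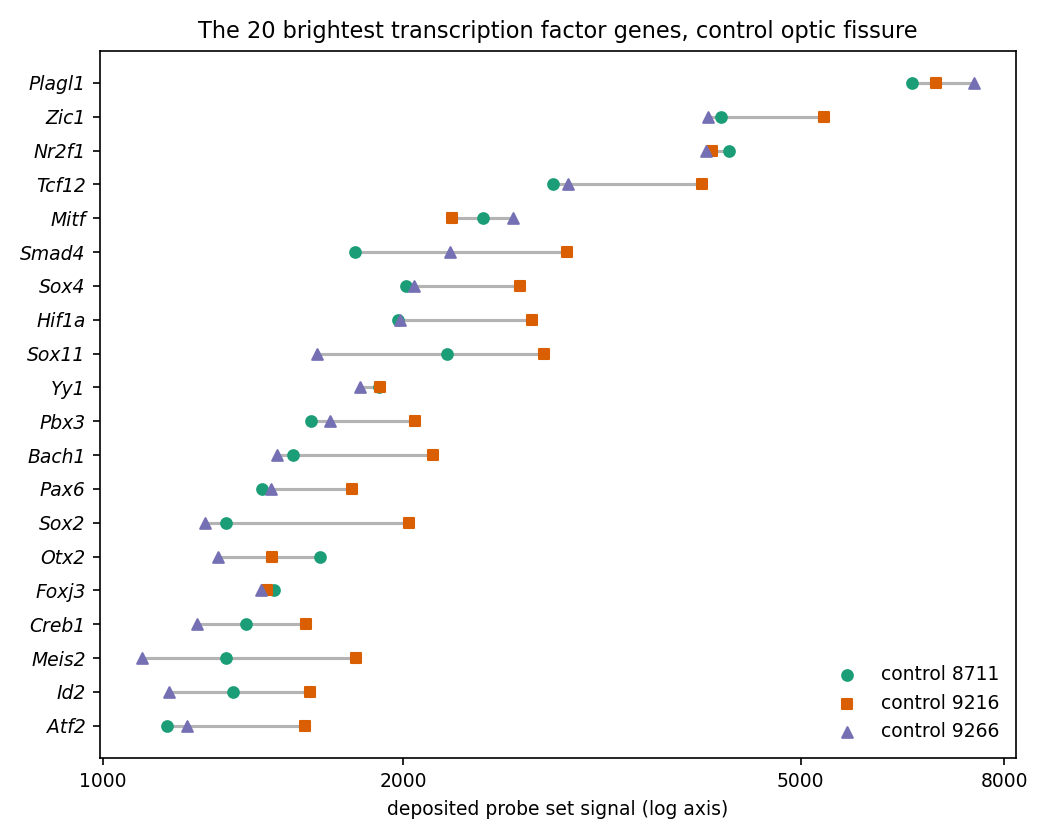
Deposited signal (log axis) of the 20 transcription factor genes with the highest mean signal, each point 1 control array and each line the range of the 3. Control 9216 gave the highest value for 15 of the 20, and no gene ranged over more than 1.69-fold.

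By family, the share with clear signal varied around the 47.2% of all factor genes. All 10 E2F and dimerisation partner genes, 9 of 10 ZIC and GLI genes, 7 of 8 SMAD genes and, near that share, 10 of 19 SOX genes had clear signal in all 3 arrays. Only 1 of 36 HOX and CDX genes did, which was Hoxa5, with 34.6, 90.5 and 34.7. This rests on 1 probe set, since the other Hoxa5 probe set had 11.8, 5.1 and 1.7, under the level in all 3 arrays. Of 8 PAX genes 1 had clear signal in all 3 arrays, Pax6. Its other probe sets were dimmer, the nearest with 152, 164 and 109.

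Genes of the optic cup and its neural retina progenitors gave clear signal almost throughout. Of 19 measured, 18 were above the level in all 3 arrays, against 56.8% of all genes. Members of this and the later lists were chosen with earlier results of these data known. Their shares describe the chosen genes and are no test. The median member was brighter than 87.7% of all genes. Fzd5, a Wnt receptor of the retina, had 2101, 2734 and 2243, but its other probe set had only 42.6, 35.4 and 28.9. Sfrp2, a secreted Wnt modulator, had 1908, 1302 and 2372. Pax6, required for eye formation, had 1442.5, 1776 and 1476, and Sox2, a progenitor factor, had 1329.8, 2028 and 1267. Mab21l2, needed for optic cup growth, had 1849.5, 719 and 1839, so control 9216 lay far below the other arrays. Six6, a homeobox factor of the ventral optic cup and hypothalamus, had 1289, 1207.5 and 1307, which lay close together. The LIM homeobox gene Lhx2 had 975, 707 and 884.5, and the early eye field genes Rax and Six3 had 301, 207 and 325.5 and 300.5, 365 and 355. Among the listed Notch pathway genes, the receptor gene Notch1 had 301, 312 and 291 and the ligand gene Dll1 54.6, 46.8 and 58.3. Hes1, a repressor that keeps progenitors undifferentiated, had 895, 468 and 632. The exception was Hes5, a related repressor, under the level in all 3 arrays with 6.9, 8.7 and 25.6.

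Genes of the stalk, fissure and ventral cup were as bright, with a median member above 87.0% of all genes. Clear signal in all 3 arrays was found for 20 of 23, against 56.8% of all genes. These members too were chosen with earlier results of these data known. Aldh1a3, the retinoic acid synthesising enzyme of the ventral cup, had 6234, 4995 and 5520.5, lowest in control 9216. Of its other probe sets, one had 1513, 1288 and 1451, in the same order, and one had 1070.4, 824.5 and 633, lowest in control 9266. Cyp1b1, an enzyme linked to ventral retinoic acid supply, had 1976, 2246 and 1834. Cdon, a hedgehog-binding surface protein, had 2157, 1730.0 and 1794.5, but its other probe set had only 29.5, 5.1 and 3.2. The ventral homeobox factors Vax2 and Vax1 had 928.5, 524 and 778.5 and 733, 595 and 559, both with clear signal in all 3 arrays. Bmpr1b, a BMP receptor of the ventral retina, had 1499, 1467 and 1314. Its other probe sets had 58.4, 101.6 and 56.7 and 46.2, 67.7 and 41.6, both highest in control 9216. Zfp503, a zinc finger repressor of the fissure margin, had 1165, 1258 and 846.

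Not every ventral gene was even across arrays. Ntn1, which encodes netrin 1, a secreted protein of the fissure margin, had 335, 114 and 359.6, and Smoc1, a secreted BMP antagonist, had 1248, 360.0 and 1063. In both, controls 8711 and 9266 lay together and control 9216 about a factor of 3 below. Under the level in all 3 arrays was Zfp703, with 15.6, 24.2 and 25.4, while Tbx3, at 20.3, 13.8 and 37.2, passed it in 1 array and Boc, at 45.4, 22.5 and 54.2, in 2 arrays. The summed signal of the ventral list was 28104, 26422 and 25260.2. Of genes of the dorsal cup, Aldh1a1, another retinoic acid synthesising enzyme, had 1237, 1320.5 and 1599.8 and Efnb2, an ephrin, 564, 570.4 and 438. Tbx5, the dorsal T-box factor, was under the level throughout with 3.4, 2.9 and 12.1. Bmp4, the dorsal ligand, had 84, 27.2 and 40.1. Pax2 was not analysed here.

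Of 17 retinoic acid pathway genes 14 had clear signal in all 3 arrays, against 56.8% of all genes. Besides Aldh1a3 and Aldh1a1, Rdh10, which makes retinaldehyde from retinol, had 2070.5, 1733 and 2001. The intracellular carrier gene Crabp2 had 1346, 1921.5 and 1353, highest in control 9216. Stra6, the retinol uptake receptor, had 223, 91.6 and 163. Of the nuclear receptors Rxrb was brightest, with 533, 216 and 615, again lowest in control 9216, while Rara was under the level with 14.4, 6.6 and 5.6. The breakdown enzyme gene Cyp26a1 was under it as well, with 13.7, 9.9 and 11.8, and Cyp26b1 had 50.2, 42.2 and 47.8.

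Of 14 hedgehog pathway genes 9 had clear signal in all 3 arrays, which at 64.3% is near the 56.8% of all genes. The receptor Ptch1, itself a target of the pathway, had 1180.2, 952.5 and 1017, and the transducer Smo had 971, 552.5 and 882. Gas1, a surface protein that binds hedgehog, had 1107, 1819 and 1005, but a dimmer Gas1 probe set had 446.5, 333 and 233.9, with another order of arrays. Gli3 and Gli2, the effectors, had 1032.5, 958 and 1040.1 and 467, 533 and 498, and the target Gli1 had 85.6, 27.1 and 52.9. The hedgehog-binding protein Hhip, with 14.5, 22.7 and 13.9, and the ligands Ihh and Dhh were under the level in every array, and Shh, at 26.6, 29.1 and 20.8, passed it only in control 9216.

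Of the FGF receptor genes, Fgfr1 and Fgfr2 carry the floxed alleles. Fgfr2 had 351, 314 and 474 and Fgfr1 247, 89.8 and 238, the latter with a low value in control 9216 that its dimmest probe set, at 44.1, 15.6 and 26.7, shared and another, at 49.4, 48.3 and 48.5, did not. Fgfr3 had 54.6, 58.6 and 72.1, and Fgfr4 was under the level in all 3. Fgf9 and Fgf15, ligands of the retinal layer, had 289, 417 and 277 and 235, 251 and 327, while Fgf8, Fgf1 and Fgf2 were under the level in each array. Downstream, the phosphatase gene Ptpn11 had 1108, 1149 and 1206. The nucleotide exchange factor gene Sos1 had 762, 823 and 602. The feedback inhibitor genes Spred1, Spred2 and Il17rd had 603.5, 796 and 609, 723, 393.5 and 617 and 423, 893 and 363. Il17rd was highest in control 9216 and Spred2 lowest there, but another Spred2 probe set, with 109, 223 and 130.1, was highest there. Dusp6, the ERK phosphatase, had 213, 271 and 317. Spry1 and Spry2 had 132, 132 and 118 and 125, 148 and 107, and Spry4 and Etv4 lay under the level. In all, 16 of 24 measured members of this list had clear signal in all 3 arrays, near the 56.8% of all genes.

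**Figure D2:**
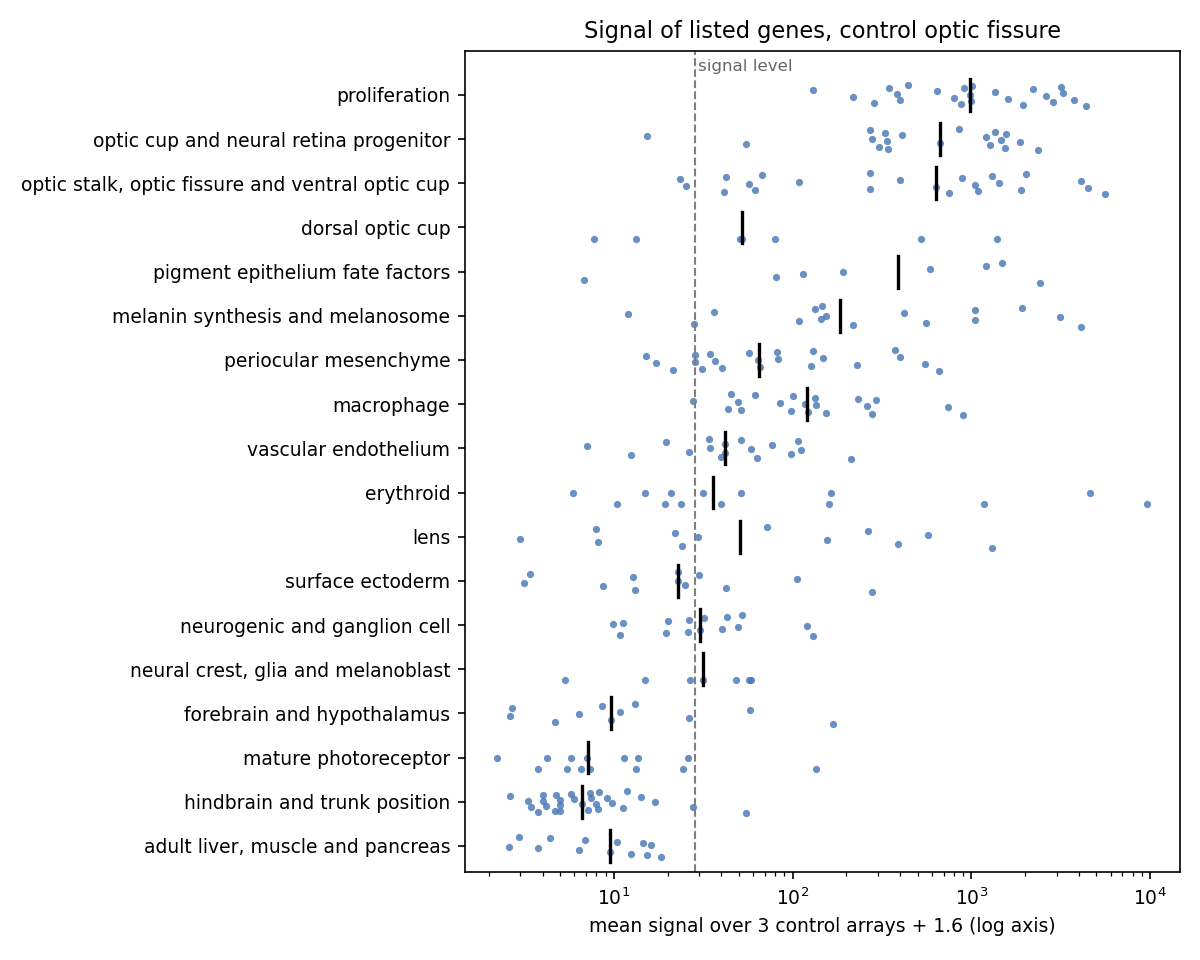
Mean signal over the 3 control arrays plus 1.6 (log axis) for each measured gene of 18 lists, with the list's median as a black bar and the signal level of 26.7 (plus 1.6) dashed. Progenitor, ventral and proliferation genes lie mostly right of the dashed line. Trunk position, photoreceptor and adult organ genes lie mostly left of it.

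Most of the pigment epithelium genes listed, which were chosen with earlier results of these data known, had clear signal. Of 8 fate factors 7, led by Mitf, had clear signal in all 3 arrays, against 56.8% of all genes. Otx2 and Otx1, homeobox factors of the pigment layer and forebrain, had 1650.0, 1479 and 1306 and 1389, 927 and 1301.5. Tead1, a partner of Yap1, had 622, 611 and 515, and Tfec, a relative of Mitf, 211, 160.2 and 198. Msx2 was under the level with 5.6, 4.9 and 5.1. Of 16 melanosome and melanin genes 13 had clear signal in all 3 arrays, against the same 56.8%. Pmel, the fibril protein of melanosomes, had 4342, 4605 and 3409. Dct, the dopachrome tautomerase of melanin synthesis, had 4009.7, 2395 and 3037. Trpm1, a cation channel of pigment cells, had 2052, 1753 and 1937.

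The oxidases of the same pathway had clear signal too. Tyrp1 had 925.5, 1415 and 797 and tyrosinase itself, Tyr, 458, 482 and 316. Rab38, a GTPase of melanosome transport, had 849.7, 1192 and 1095.5. Gsta3 was under the level with 11.8, 7.5 and 12, while Mlana, at 36.2, 25 and 18.9, and Mlph, at 48.8, 23.5 and 31.8, were near it. Control 9266 was the lowest array for 9 of the 14 genes of this list with a mean above the level, against 23.6% of all such genes. Genes of the separate melanoblast lineage of the neural crest were dim. Kit had 70.3, 58.1 and 37.2, Ednrb 50.9, 70.1 and 50.9 and Sox10 20.3, 39.5 and 30.2, and Mc1r and Foxd3 were under the level in every array.

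Mitf and its relatives are known to bind the M-box, TCATGTG, in promoters of melanin genes. The 250 bases before the annotated start were searched for TCATGTG on both strands (CACATGA on the other), with overlapping matches allowed. Of 11 genes in the melanosome and melanin list with a promoter sequence, 5 held it, against 3.72% of 27025 genes with a promoter. As the motif is known from melanin gene promoters and the list was set by hand, this share is no independent result. The 4 that also have a signal here are shown because they include the brightest pigment genes with a known promoter sequence. Each reads 5′ to 3′ towards the start, in RefSeq's GRCm38.p6, with every match in capitals. A match describes these letters only.
Dct, chr14:118052247-118052496 (minus strand): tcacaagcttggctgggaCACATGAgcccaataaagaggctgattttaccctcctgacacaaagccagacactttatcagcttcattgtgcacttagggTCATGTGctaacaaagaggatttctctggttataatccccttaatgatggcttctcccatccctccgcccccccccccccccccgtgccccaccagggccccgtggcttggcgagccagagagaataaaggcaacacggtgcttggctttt
Trpm1, chr7:64153585-64153834 (plus strand): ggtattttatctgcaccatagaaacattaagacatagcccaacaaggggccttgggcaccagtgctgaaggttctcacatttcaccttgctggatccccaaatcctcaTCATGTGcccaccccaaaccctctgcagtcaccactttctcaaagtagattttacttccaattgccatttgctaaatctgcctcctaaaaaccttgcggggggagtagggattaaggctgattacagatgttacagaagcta
Tyrp1, chr4:80833963-80834212 (plus strand): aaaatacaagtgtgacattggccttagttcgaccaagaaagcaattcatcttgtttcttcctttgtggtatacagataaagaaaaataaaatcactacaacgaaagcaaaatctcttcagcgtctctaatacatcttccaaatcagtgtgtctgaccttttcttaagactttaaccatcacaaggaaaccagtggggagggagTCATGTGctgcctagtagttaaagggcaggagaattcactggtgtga
Tyr, chr7:87493513-87493762 (minus strand): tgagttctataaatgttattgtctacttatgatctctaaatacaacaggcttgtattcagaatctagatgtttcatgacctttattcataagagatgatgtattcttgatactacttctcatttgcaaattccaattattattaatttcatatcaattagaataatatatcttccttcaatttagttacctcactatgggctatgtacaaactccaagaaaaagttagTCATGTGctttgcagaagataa
The matches begin 232 and 151 bases before the start in Dct, 142 in Trpm1, 47 in Tyrp1 and 22 in Tyr. A second annotated Trpm1 start had none. The fifth gene, Slc24a5, was not read by a probe set with 1 symbol. Among the 4 pigment fate factors with a promoter sequence, 0 held the motif.

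Of 22 periocular mesenchyme genes 13 had clear signal in all 3 arrays, a share near the 56.8% of all genes, and the median member was brighter than 49.9% of all genes. Col3a1, a fibrillar collagen, had 901, 361 and 719.7, Snai2, a zinc finger factor of migrating mesenchyme, 503, 643 and 497, and Lum, a matrix proteoglycan, 495, 226 and 467. Col1a2 had 431, 224 and 455 and Col5a1 223, 229.6 and 229.7. Of the defining factors, Foxc1 and Foxc2 had 74.1, 39.2 and 73.9 and 65.6, 20.3 and 79.9, and Prrx1 123.8, 88.8 and 165. Foxf2, Alx4 and Twist1 were under the level in all 3 arrays, Twist1 with 15, 7 and 18.5. In these tissue pieces, fewer cells of a type and less RNA per cell cannot be told apart.

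Control 9216 was the lowest array for 12 of the 16 mesenchyme genes with a mean above the level, against 53.2% of all such genes. The summed signal of the list was 3617, 2371 and 3566. Of the 16, 5 spanned over 2-fold between arrays, against 11.1% of all such genes, and without control 9216 there were 0, against 1.26%. These shares are over genes of any brightness, and dim genes spread more. In the middle of the 16 by mean signal lay Prrx1, at 126, and Tfap2b, at 81. Among all genes with means of 74.1 to 108, 16.7% spanned over 2-fold with 3 arrays and 1.38% without control 9216. For means of 108 to 156 these shares were 15.3% and 1.01%. On the log2 scale the mean of the list in control 9216 lay 0.43 under the genes' own means over the 3 arrays, where all genes lay 0.11 under.

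Embryonic globins were the brightest erythroid genes. Hbb-y, an embryonic beta-like globin, had 9391, 9099 and 10391 and was gene 23 in order of brightness, and Hbb-bh1, another, had 4499, 3508 and 5759. Hba-x, the embryonic alpha-like globin, had 1328, 619 and 1571. The globin copies are similar in sequence, so a probe set may bind more than 1 of them. Hemgn, an erythroid nuclear protein, had 200.2, 94.8 and 193, and Slc4a1, the red cell anion exchanger, 146, 81.5 and 250.5. The erythroid factors Klf1 and Gata1 were near or under the level, with 31.7, 23.5 and 34.3 and 23.4, 27 and 15.9. Of 14 measured genes 7 had clear signal in all 3 arrays, against 56.8% of all genes. Hba-a1, the adult alpha globin, was under the level with 3.9, 0.6 and 8.4, and so was Epb42. Control 9216 was the lowest array for 7 of the 8 genes with a mean above the level, against 53.2% of all such genes. The summed signal of the list was 15759, 13596 and 18385.

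Macrophage and vessel genes were measured too. Of 20 macrophage genes 18 had clear signal in all 3 arrays, against 56.8% of all genes. Csf1r, the receptor for colony stimulating factor, had 951, 873 and 859, and Ctss, cathepsin S, 667, 818 and 736. Pf4 had 222, 240.2 and 412, Laptm5, a lysosomal protein, 293, 239 and 300.1, and Cx3cr1, the fractalkine receptor, 307, 161 and 313. Control 9216 was the lowest array for 16 of the 19 with a mean above the level, against 53.2% of all such genes. However, the Csf1r values lay close together and Ctss was highest in control 9216. The summed signals were 4087, 3316 and 4286.

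Among 17 endothelial genes 9 had clear signal in all 3 arrays, again near the 56.8% of all genes. Kdr, a VEGF receptor, had 260.0, 128 and 244, Egfl7, a vascular matrix factor, 114, 79.2 and 138.5, and Plvap, a protein of fenestrated vessels, 159, 53.3 and 104. Pecam1 was under the level in every array, with 1.4, 2.6 and 12.5. Control 9216 was the lowest array for 12 of the 13 with a mean above the level, against 53.2% of all such genes. The summed signal was 1279, 642 and 1110.5, so control 9216 had the smallest sum here as for mesenchyme, erythroid and macrophage genes. It also had the smallest sum over all genes and, among other lists, for progenitor, coloboma, basement membrane and proliferation genes. Control 9266 had the smallest sum for ventral, melanin and hedgehog genes, and control 8711 for FGF genes. On the log2 scale control 9216 lay under the -0.11 of all genes also for neurogenic (-0.36), basement membrane (-0.29) and hedgehog genes (-0.28). Of the 13 genes 7 spanned over 2-fold, against 11.1% of all such genes, and 1 did so without control 9216, against 1.26%. These shares are over genes of any brightness, and dim genes spread more. The middle one of the 13 by mean signal was Eng, at 56.9. Among all genes with means of 46.8 to 74, 19.5% spanned over 2-fold with 3 arrays and 2.74% without control 9216.

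**Figure D3:**
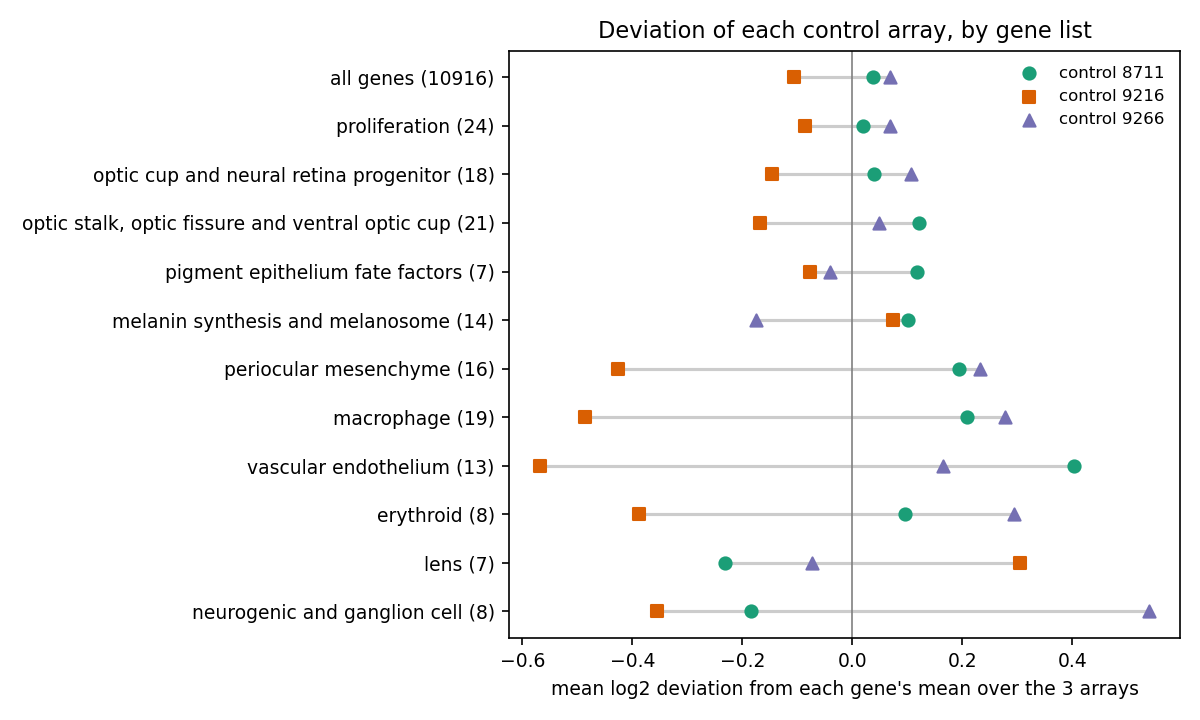
Mean log2 deviation of each control array from the genes' own means over the 3 arrays, for all genes with a mean above the level and for 11 lists (number of genes in brackets). Control 9216 lies at -0.43 for mesenchyme, -0.49 for macrophage, -0.57 for endothelial and -0.39 for erythroid genes, against -0.11 for all genes. It lies at -0.36 for neurogenic genes and at 0.31 for lens genes.

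Of 7 lens genes with a mean above the level, 4 were highest in control 9216, against 29.9% of all such genes, while Cryaa, Cryab and Pitx3 were highest in control 9266 and Pitx3 was lowest in control 9216. Maf, a factor of lens fibres that other cells also express, had 1166, 1699.7 and 1046.5, Cryba1, a beta crystallin, 517.5, 842 and 342, and Prox1 40.4, 129 and 41.7. Cryab and Cryaa, the alpha crystallins, had 303, 337 and 528 and 186, 299.6 and 301, lowest in control 8711. The lens factor Foxe3 was under the level with 1.8, 1.1 and 1.3, as were the fibre genes Mip and Bfsp1. The summed lens signal was 2446.5, 3554 and 2498, and the part of lens tissue in the differences of control 9216 was not tested.

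Surface ectoderm gave little. Of 12 genes 3 had clear signal in all 3 arrays, against 56.8% of all genes. These were Krt18, Epcam and Krt8, with 311, 249 and 273 for Krt18, a keratin of simple epithelia. Krt5, Krt14, Krt15 and Trp63, which define stratified epithelia, were under the level in every array. Of 15 neurogenic genes 3 had clear signal in all 3 arrays, against the same 56.8%. Atoh7, the factor that specifies ganglion cells, had 48.7, 16.5 and 293, so its mean rests on control 9266. A second, dimmer Atoh7 probe set had 8.9, 2.5 and 41.6. Isl1 and Nefm, a factor and a neurofilament of young neurons, had 15.1, 30.7 and 69.8 and 5.2, 21.6 and 46.2. Control 9266 was the highest array for 5 of the 8 neurogenic genes with a mean above the level, against 41.4% of all such genes, and the summed signal was 464, 441 and 889.5. Onecut2 had 141, 130.5 and 112.5, with no rise in that array.

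Of 11 forebrain and hypothalamus genes, Fezf2, a forebrain zinc finger factor, had 183, 179 and 136 and Emx2 62.5, 28.8 and 77.5. Nkx2-1, Dlx1 and Tbr1, which mark neighbouring forebrain regions, had means of 3.1, 1.1 and 1. Of 29 genes of hindbrain and trunk position 1 had clear signal in all 3 arrays, against 56.8% of all genes. Of 14 photoreceptor genes 1 did (Crx, with 162, 121 and 118), and of 13 genes of adult liver, muscle and pancreas 0.

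Proliferation genes were bright. All 24 had clear signal in all 3 arrays, against 56.8% of all genes, and the median member was brighter than 92.0% of all genes. Mcm7, a helicase subunit of DNA replication, had 4284, 4203 and 4574, Pcna, the replication clamp, 3713, 3814 and 3650.4, Top2a, a topoisomerase, 3096, 2797 and 3858, and Mki67, a marker of cycling cells, 3184, 3428 and 2951. Of the D cyclins, Ccnd2 had 2590.5, 2976 and 2961 and Ccnd1 1368, 707 and 1962. The low Ccnd1 value of control 9216 was not seen in its second probe set, with 661, 826 and 822. Only Ccnd1 and Birc5 (8.33% of the list) spanned over 2-fold, the latter with 784, 342 and 798. The list's median signal was 985. Among all genes with means of 680 to 1259, 3.57% spanned over 2-fold. The median ratio of highest to lowest value was 1.27 both in the list and among those genes.

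Genes mutated in human coloboma were mostly bright here, the median member lying above 87.1% of all genes. Clear signal in all 3 arrays was found for 29 of 32 measured, against 56.8% of all genes. This list shares members with the retina and ventral lists, and its members too were chosen with earlier results of these data known. Besides Aldh1a3 and Fzd5 above, Actg1, a cytoplasmic actin, had 8802, 8378.5 and 9365.5, Tenm3, a teneurin adhesion protein, 3068, 2813 and 2764, Yap1, the Hippo pathway co-activator, 1649, 1264 and 1785, and Chd7, a chromatin remodeller, 1104, 684 and 876. Gdf3 was under the level with 8.4, 8.3 and 4, and Shh and Tfap2a were at or near it. Of the 29 genes with a mean above the level 6 spanned over 2-fold, against 11.1% of all such genes, and 1 without control 9216, against 1.26%. These shares are over genes of any brightness, and bright genes spread less. The middle one of the 29 by mean signal was Chd7, at 888. Among all genes with means of 680 to 1259, 3.57% spanned over 2-fold with 3 arrays and 0% without control 9216.

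The margins of the cleft are epithelia on a basement membrane. Of 21 basement membrane genes, Col18a1, a heparan sulfate collagen, had 1911, 1191.5 and 1615, Lamb1, a laminin beta chain, 1262.5, 1737 and 1128, Agrn, agrin, 875, 527.5 and 1027, Col4a1 807, 536 and 793 and Nid1, nidogen 1, 486, 456 and 532.5. Lama3, Lamb3 and Lamc3 were under the level. Among adhesion genes, the beta and alpha catenin genes Ctnnb1 and Ctnna1 had 7359.9, 7705 and 7815.5 and 4039, 5075 and 4176. The other Ctnnb1 probe sets were dimmer, with 659.3, 459.2 and 596.4 and 241.4, 199.4 and 182. The cadherins Cdh11 and Cdh2 had 2753, 2960.3 and 2631 and 1441, 1727.5 and 1811.5, whereas Cdh1, the cadherin of surface epithelia, had 17.6, 29.7 and 37.9.

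The 3 arrays were unequally alike. Over 10916 genes with a mean above the level, the SD of the log2 difference between arrays was 0.32 for controls 8711 and 9266, 0.52 for 8711 and 9216 and 0.57 for 9216 and 9266. In 1209 genes (11.1%) the highest value was over 2-fold the lowest, and without control 9216 this held for 138 (1.26%), against 957 (8.77%) without 8711 and 628 (5.75%) without 9266. Control 9216 was over 2-fold below both other arrays in 355 genes (3.25%) and over 2-fold above both in 70 (0.641%). For control 8711 these counts were 15 (0.137%) and 11 (0.101%), and for control 9266 25 (0.229%) and 38 (0.348%). With 3 arrays no test between single arrays is possible. The spread fell with brightness, from 21.6% of genes over 2-fold in the dimmest of 10 groups of about equal size to 2.47% in the brightest.

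**Figure D4:**
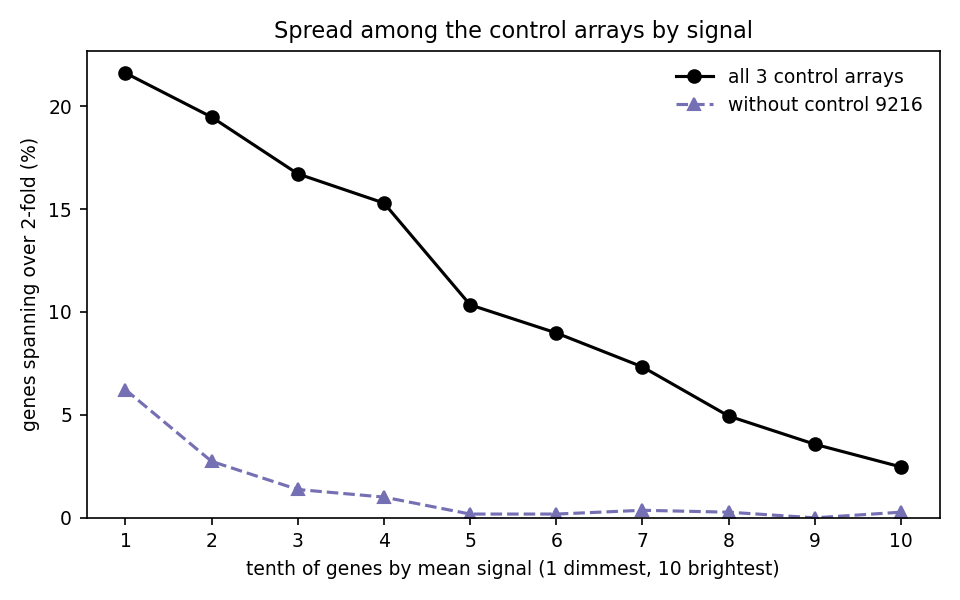
Share of genes whose highest control value was over 2-fold the lowest, in 10 groups of 10916 genes ordered by mean signal, for all 3 arrays and without control 9216. The share falls from 21.6% to 2.47% with 3 arrays, and from 6.23% to 0.275% without control 9216.

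RNA measures also differed. The ratio of 3 prime to 5 prime signal of the control probe sets was 8.12, 4.93 and 15 for Gapdh and 8.19, 6.32 and 12.1 for Actb, so control 9216 was lowest in both and control 9266 highest. A high ratio marks RNA whose 5 prime ends were lost or not copied. Their part in the differences between arrays was not tested.

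The arrays also differed in genes that tell the sex of embryos. Xist, the RNA that coats the inactive X chromosome of female cells, had 1269.6, 4313 and 2792 at its brightest probe set and 519, 5733 and 530.2 at the next. The Y-linked genes Eif2s3y, Kdm5d and Uty had 698, 1.3 and 535, 164, 5.8 and 120.0 and 72.3, 2.6 and 52.5. Controls 8711 and 9266 thus held both Xist and Y-linked signal, and control 9216 held the highest Xist signal with all 3 Y-linked genes under the level. Ddx3y was not analysed here. How much of the distance of control 9216 moves with sex was not tested.

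**Figure D5:**
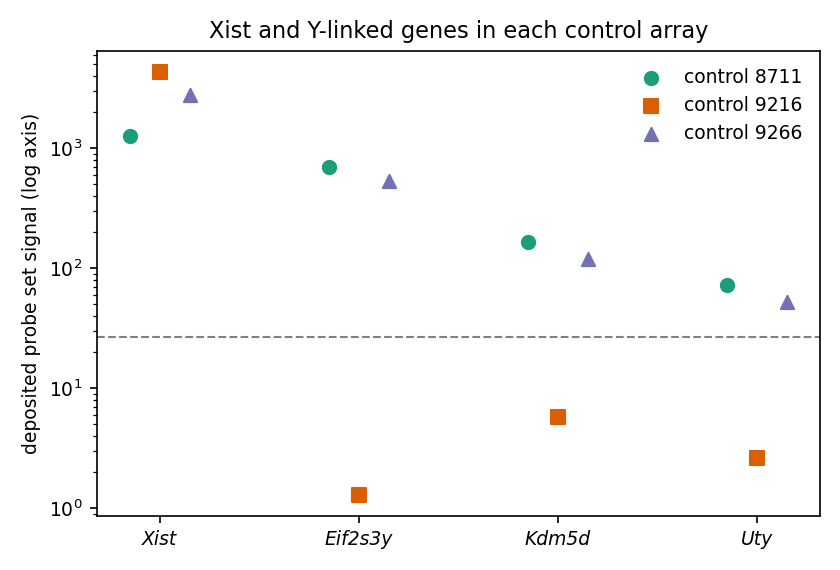
Deposited signal (log axis) of Xist and 3 Y-linked genes, 1 point per control array, with the signal level of 26.7 dashed. In control 9216 the Y-linked genes lie between 1.30 and 5.80 and Xist at 4313, while the other arrays show all 4 genes above the level.

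Beyond these, the genes furthest below both other arrays in control 9216, among those with a mean of 100 or more, were Rmst, a long non-coding RNA of the neural tube, with 2183, 147.5 and 1475, Ctxn1 with 274, 73.2 and 311, Mfap4, a microfibril protein, with 172, 45.2 and 169.7, and Aplnr, the apelin receptor of vessels, with 684, 182 and 668. A second Aplnr probe set, with 72.4, 33.5 and 73.5, had the same order, but a second Rmst probe set had 398, 261.5 and 319, a smaller gap. Furthest above both others in that array were E2f8, a cell cycle repressor, with 104, 411.5 and 101, and Zfp458, Rad18, Zfp40 and Nuf2. Rad18, a ubiquitin ligase of DNA repair, had 129, 482 and 103, against 118, 153 and 101 at another of its probe sets, and Nuf2, a kinetochore protein, 72, 277 and 90.9.

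In control 9266, Atoh7 and Ifitm3, an interferon-induced membrane protein, stood highest above the others, Ifitm3 with 63.4, 40.6 and 278. Trim25, Map2 and Rnf213 followed, at 172, 152.5 and 441 for Trim25. Slc15a2, a peptide transporter, stood furthest below, with 171, 163 and 13, followed by Tmem267, Zfp945, Zfp458 and Gm13306. In control 8711, Stk25, a kinase, stood highest above the others, with 222, 83.5 and 79.5, followed by Vps52, Scel, Cd59a and Tmem267. Xist stood furthest below there at its brightest probe set, a gap between controls 8711 and 9266 that the next probe set, given above, lacked. Jpt1, with 752, 2115 and 1523, came next, but another Jpt1 probe set had 1182, 953 and 1603, lowest in control 9216. Terf1, Setd3 and Zcchc9 followed, and another Setd3 probe set had 252, 245 and 266, with no such gap.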

How the data were processed

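Gene expression was measured on 3 control and 3 mutant Affymetrix arrays, grouped by title, and only the control columns were used (3 other columns of the table were left out). Per the labels' protocols, biotinylated cRNA was prepared from 10 ug of total RNA, and the submitters' processing notes name MAS5, without a version that is given in the sources used here. Linear intensity is the unit: the authors deposited each probe set's intensity on a linear scale, and the values show a scaling to a 2% trimmed mean of 150 in each array. That scaling hides differences in total RNA. Detection calls were not used.

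Of 45101 probe sets, 64 manufacturer controls were left out of gene counts. Of the rest, 34945 had 1 symbol, 932 several and 9160 none in the platform annotation, 34741 matched the reference gene table and 0 symbols were updated. A gene is its probe set with 1 symbol and the highest mean, so genes read only by shared probe sets are missing. Log2 values were taken after adding 1.6, the 10th percentile. Spread is the highest over the lowest value, both with 1.6 added. No contrast between groups was made, so no p-value is given, and the number of arrays limits the precision. Transcription factor families were set by symbol patterns, and the 25 lists by hand. Lists and members were chosen with earlier results of these data known. Named were the 15 brightest genes, the 20 brightest factors, the 5 brightest of each list and up to 3 members under the level, the sex-linked genes, and for each array the 5 genes furthest above and below the others with a mean of 100 or more. Other list members named here, among them Mitf's companions such as Tfec, were chosen after their values were seen, and second probe sets are given for some genes only. Of 83 named genes with several probe sets above the level, 31 had the same brightest array in all of them and 35 the same dimmest array. Alternatives were the mean of all probe sets, median centring, quantile normalization, other added values, folds and levels, and leaving out each array. Promoters came from RefSeq's GRCm38.p6 table. Python 3.11.15, numpy 2.4.6, pandas 2.3.3, scipy 1.17.1 and matplotlib 3.10.9 were used.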

Additional observations from a re-analysis of the deposited data

How the results depend on the processing

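No paired analysis was possible because only the control group was used and no result comes from a test. The 10338 genes with clear signal became 6631 with the level at the 60th percentile. The 1209 genes spanning over 2-fold became 719 with 16 added, 59 at 4-fold and 501 at the 60th percentile, and 130 to 957 with 1 array left out, 130 being without control 9216 with the level set anew. The factors among the 500 brightest genes were 5 to 9 with 1 array left out. For control 9216, the 355 genes below both others became 177 with 16 added, 12 at 4-fold and 151 at the 60th percentile, and the 70 above became 0 at 4-fold and 35 at the 60th percentile. For control 8711, the 11 above became 18 with the mean of all probe sets, 7 with quantile normalization, 4 with 16 added, 0 at 4-fold, 2 at the 60th percentile and 22 at the olfactory receptor level (14.6), and the 15 below became 30, 3 with 16 added, 0 at 4-fold, 2 at the 60th percentile and 49 at the olfactory receptor level. For control 9266, the 38 above became 15 with 16 added, 5 at 4-fold, 2 at the 60th percentile and 69 at the olfactory receptor level, and the 25 below became 64 with the mean of all probe sets, 10 with 16 added, 3 at 4-fold, 6 at the 60th percentile and 65 at the olfactory receptor level. Higher folds and levels count fewer genes by construction, and the cause of the other moves was not tested. With the mean of all probe sets, the median percentile became 73.5 from 87.0 for the ventral list, 75.5 from 76.6 for pigment fate factors, 79.3 from 66.6 for melanin genes and 49.1 from 42.2 for erythroid genes, and 8 of the 15 brightest genes remained. The lower position of control 9216 in the mesenchyme, macrophage, endothelial and erythroid lists kept its sign under median centring, quantile normalization and 16 added. The spread counts of the lists without each array were added after seeing the data.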

Other observations

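Several genes outside the lists, chosen after their values were seen, were among the 100 brightest of the control fissure. Col9a1, a collagen of the eye and cartilage, had 7648, 6504 and 7876, and Gja1, the gap junction protein connexin 43, had 6782, 7025 and 7134. Flrt2, a leucine-rich repeat adhesion protein, had 6831, 6554.5 and 6703, Fabp5, a fatty acid carrier, 6576, 7198 and 7062.5, and Itm2a, a membrane protein, 6272, 6036 and 6106. Each of the 5 spanned at most 1.21-fold across the arrays. The brightest T-box gene was Tbx20, with 509, 740.1 and 546, while the T-box genes of the ventral list, Tbx2 and Tbx3, had means of 66 and 23.8. Myb, a factor of cycling progenitors, had 627, 796 and 768.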
